A study of Mus musculus with 8 samples.

Results

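The comparison described here sets mouse embryonic stem cells that lack the long noncoding RNA lncSmad7 and were transfected with Smad7 against wild-type cells. It rests on 4 of the 8 samples that the labels describe, the 2 libraries labelled lncSmad7-/- with Smad7 transfected and the 2 labelled wild type. All samples are of the E14 line, of strain 129/Ola, grown on gelatin with serum and leukaemia inhibitory factor (LIF), and their poly(A)-selected RNA was sequenced. The wild-type cells were untreated. The Smad7-transfected cells carry the lncSmad7-/- genotype, and their descriptions name 24 h. The 2 untreated lncSmad7-/- libraries, called the knockout, entered the same fit, and their values stand beside the others for the same genes. Both comparisons share the wild-type libraries. No sample is labelled as transfected with an empty vector, so transfection, the time in culture after it and Smad7 cannot be told apart. The labels call the replicates biological and do not say whether they came from separate cultures, or how many clones the knockout holds. The p-values therefore speak of the scatter among the libraries at hand, and that scatter may be technical. Members are the genes of the deposited count table, 17342 of 55292 of which had enough reads to be tested.

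SMAD7 is an inhibitory Smad: it binds activated receptors of the TGF-beta superfamily, brings ubiquitin ligases to them and thereby limits signalling by TGF-beta, activin, nodal and bone morphogenetic proteins (BMPs). In embryonic stem cells, BMP signalling acts with LIF to hold back differentiation, while nodal and activin prepare cells for it. Among the gene groups below, the hypoxia-inducible factors (HIFs) are transcription factors that prolyl hydroxylases mark for destruction when oxygen is present, and that switch on glycolysis and angiogenic genes when it is low, while p53 is a transcription factor that switches on cell-cycle arrest and death genes after stress.

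Total counts were 19260386 and 20209760 for wild type, 20159897 and 19455030 for the knockout, and 13392941 and 15972163 for the Smad7-transfected knockout as labelled, whose libraries are called the transfected libraries from here on. More genes had at least 1 count in the transfected libraries (26358 and 27359) than in wild type (24446 and 24671), although the transfected libraries were the shallowest. Mitochondrial transcripts took 2.48% and 2.33% of counts there, against 1.58% and 1.53% in wild type. On the first principal component, which held 71.2% of the variance, wild type lay at −84.99 and −85.16, the knockout at −3.93 and −3.98, and the transfected libraries at 88.11 and 89.94. On the first 2 components together the transfected libraries lay 174 units from wild type and the knockout 119. Defining markers of fibroblasts and feeder cells were low, and 7 of 10 had too few reads to be tested. The summed level of the 3 tested was 7.08 and 7.55 normalised CPM (counts scaled by library size and TMM factor) in wild type and 17.1 and 17.2 in the transfected libraries. All 3 were called higher than wild type by the test described below. Among them, Pdgfrb stood at 2.89 and 2.57 CPM in wild type and 8.71 and 8.49 in the transfected libraries.

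Each gene was placed by edgeR's quasi-likelihood test. A gene is called away from wild type when its adjusted p was under 0.05 and it differed at least 2-fold. It is called at the wild-type level when the whole 95% interval of its fold lay between 25% above wild type and the same ratio below it (0.32 on the log2 scale either way), since a p that misses the threshold does not show equality. Of the 17342 genes, 14198 (81.9%) passed the threshold, 7469 (43.1%) higher and 6729 (38.8%) lower than wild type. At least 2-fold changes were seen in 7457 (43.0%), of which 4749 (27.4% of genes tested) were higher and 2708 (15.6%) lower. At the wild-type level stood 1483 genes (8.55%), and 556 of these passed the threshold with a difference inside that limit. Another 6185 (35.7%) passed the threshold with a smaller change, and 2217 (12.8%) were undecided. These shares of all genes are the background for the counts of list members below. In the knockout 11747 genes (67.7%) passed the threshold, and 2460 genes (14.2%) were at least 2-fold higher, 1516 (8.74%) at least 2-fold lower and 2654 (15.3%) at the wild-type level. Over all genes tested, the log2 fold had a median of 0.09 after transfection and 0.02 before it. Scaling by library size alone moved that median to 0.48, and the share of calls that were higher moved from 52.6% to 68.3%, or from 63.7% to 82.4% among changes of at least 2-fold. A level call therefore holds relative to the TMM factors (1.16 in both transfected libraries, 0.88 and 0.89 in wild type), and its interval does not hold the error of that scaling. Of the 98 genes at the wild-type level that the naming rule picked, 16 were still there with library size scaling, 50 with offsets for GC content and transcript length, 74 with DESeq2 and 86 with RLE factors. Genes outside that rule are named only to complete a count or where stated, and were chosen after their values were seen.

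Smad7, on chromosome 18 of GRCm38 (75367529 to 75395935, plus strand), stood at 97.6 and 97.7 CPM in wild type, 75.5 and 69.6 in knockout cells, and 93.8 and 99.4 in the transfected libraries. The transfected and wild-type libraries overlapped and both knockout libraries lay below them. The log2 fold against wild type was −0.01 (95% interval −0.11 to 0.08, adjusted p = 0.79), which is at the wild-type level, so the deposited counts show no excess of Smad7 over wild type. With library size scaling it read 0.38. The lncSmad7 feature stood at 13.98 and 12.36 CPM in wild type, 7.14 and 5.52 in knockout cells, and 10.8 and 11.2 in the transfected libraries. The transfected libraries thus lay between the others without overlap (log2 fold against wild type −0.26, SE 0.11, adjusted p = 0.027). That call was lost without either transfected library (adjusted p = 0.11 and 0.068), without the first wild-type library (0.19) and with DESeq2 (0.12), and the sign turned with library size scaling (0.14). The sources used here do not say where the lncSmad7 feature lies relative to the deleted stretch, so its remaining reads check neither the deletion nor the label.

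Genes that low oxygen induces were higher than wild type, with the highest median of the 55 lists examined. Of 28 hypoxia-induced effectors tested, 22 were at least 2-fold higher and 0 lower, with a median log2 fold of 2.74 against 0.09 over all genes, and 27 passed the threshold upward. In the knockout 17 of them were at least 2-fold higher, with a median of 1.73. At the wild-type level stood 1 member, Kdm3a, a histone demethylase, with 272 and 284 CPM in wild type and 330 and 321 in the transfected libraries, a call that ended without the second transfected library (log2 fold 0.25) or the second wild-type library (0.23). Glycolysis, a neighbouring group that HIF also reaches, split into members far from wild type and members at its level, as described below. RNA of a whole culture cannot tell fewer cells of a kind from less RNA per cell, here or in any group that follows.

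The 250 bases before the start of 5 of these genes are shown because the members moved together and the HIF complex is known to bind short elements with the core ACGTG. They are from RefSeq (GRCm38.p6), 5′ to 3′ on the gene's strand, and capitals mark ACGTG or its reverse complement CACGT, so that an overlapping CACGTG holds both. Egln3 (chr12:54203875-54204124, minus strand), Ddit4 (chr10:59951771-59952020, minus strand), Slc2a1 (chr4:119108495-119108744, plus strand) and Pgk1 (chrX:106186850-106187099, plus strand) were away from wild type, and Ldha (chr7:46845554-46845803, plus strand) was at its level.
Egln3: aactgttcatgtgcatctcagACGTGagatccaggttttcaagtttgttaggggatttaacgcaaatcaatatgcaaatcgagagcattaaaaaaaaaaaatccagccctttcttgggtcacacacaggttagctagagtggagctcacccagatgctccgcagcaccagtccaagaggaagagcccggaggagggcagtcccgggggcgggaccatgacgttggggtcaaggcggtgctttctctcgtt
Ddit4: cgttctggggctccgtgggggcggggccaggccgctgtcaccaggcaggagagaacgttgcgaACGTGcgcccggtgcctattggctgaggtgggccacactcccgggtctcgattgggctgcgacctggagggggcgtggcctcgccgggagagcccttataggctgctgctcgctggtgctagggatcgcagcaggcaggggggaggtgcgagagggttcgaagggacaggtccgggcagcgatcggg
Slc2a1: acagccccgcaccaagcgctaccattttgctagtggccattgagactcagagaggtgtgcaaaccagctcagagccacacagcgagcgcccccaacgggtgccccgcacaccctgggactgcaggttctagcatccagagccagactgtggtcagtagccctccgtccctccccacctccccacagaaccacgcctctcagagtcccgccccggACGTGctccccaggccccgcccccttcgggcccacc
Pgk1: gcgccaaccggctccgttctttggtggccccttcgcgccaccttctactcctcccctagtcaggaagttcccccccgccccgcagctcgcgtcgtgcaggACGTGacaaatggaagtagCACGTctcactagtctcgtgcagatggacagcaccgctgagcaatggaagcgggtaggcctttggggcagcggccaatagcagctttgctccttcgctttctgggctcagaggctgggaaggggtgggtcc
Ldha: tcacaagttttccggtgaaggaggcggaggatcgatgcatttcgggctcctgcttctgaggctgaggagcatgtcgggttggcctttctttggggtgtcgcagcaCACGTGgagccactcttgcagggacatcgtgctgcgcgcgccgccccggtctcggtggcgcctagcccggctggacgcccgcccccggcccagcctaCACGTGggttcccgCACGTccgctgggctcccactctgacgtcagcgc
The first letter of the match lay 229 bases before the start in Egln3, 187 in Ddit4 and 36 in Slc2a1. Pgk1 held matches at 150 and 131 bases, and Ldha at 145, 144, 48, 47 and 34, each CACGTG being counted once on either strand. Of the 31 hypoxia and glycolysis members that were away and higher, 25 had an entry, and 14 of those (56.0%) held the core. So did 4 of the 9 members at the wild-type level (44.4%), 2502 of the 11681 genes tested that had an entry (21.4%) and 5444 of all 32851 starts in the table (16.6%). Ldha, with the most matches of the 5, was thus at the wild-type level. A match is a run of letters and not a bound site, and these shares were computed over members sorted by their change, so they carry no test.

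The targets of the group range from signalling to mitochondria. Stc1 encodes stanniocalcin, a secreted hormone. Neither wild-type library held a count of it, while the knockout held 57 and 56 and the transfected libraries 254 and 319, at least 195-fold more than the limit that 3 counts in wild type as a group would set, which covers counting error only. Ndufa4l2, a paralog of a respiratory chain subunit that low oxygen induces, stood at 0.472 and 0.336 CPM in wild type, 26.8 and 27.7 in knockout cells, and 75.3 and 76.4 in the transfected libraries (log2 fold 7.54, SE 0.14, adjusted p = 3.9e-95). The 3 groups did not overlap for either gene, and the transfected libraries were the farthest from wild type.

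Egln3, a prolyl hydroxylase that marks HIF subunits, stood at 3.13 and 3.30 CPM in wild type, 32.4 and 35.9 in knockout cells, and 147 and 142 in the transfected libraries (log2 fold 5.48, SE 0.084). Ddit4, an inhibitor of mTORC1 signalling, stood at 15.2 and 17.7, 73.9 and 77.2, and 617 and 611 CPM (log2 fold 5.22, SE 0.052, adjusted p = 2.3e-132). Vegfa, the angiogenic growth factor, stood at 10.2 and 8.72, 51.1 and 54.7, and 175 and 171 CPM (log2 fold 4.19, SE 0.066). In each of these the libraries of the 3 groups were separate and in the same order. Bhlhe40 and Bhlhe41, transcriptional repressors of the clock and of hypoxia, had log2 folds of 3.82 and 5.36, against 3.27 and 4.41 in the knockout. Outside the naming rule and chosen after their values were seen, Adm, a vasodilator peptide, stood at 0.0590 and 0.0559 CPM in wild type and 7.87 and 8.17 in the transfected libraries (log2 fold 6.96, SE 0.38), and Bnip3, a mitophagy receptor, had a log2 fold of 4.03.

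**Figure D1:**
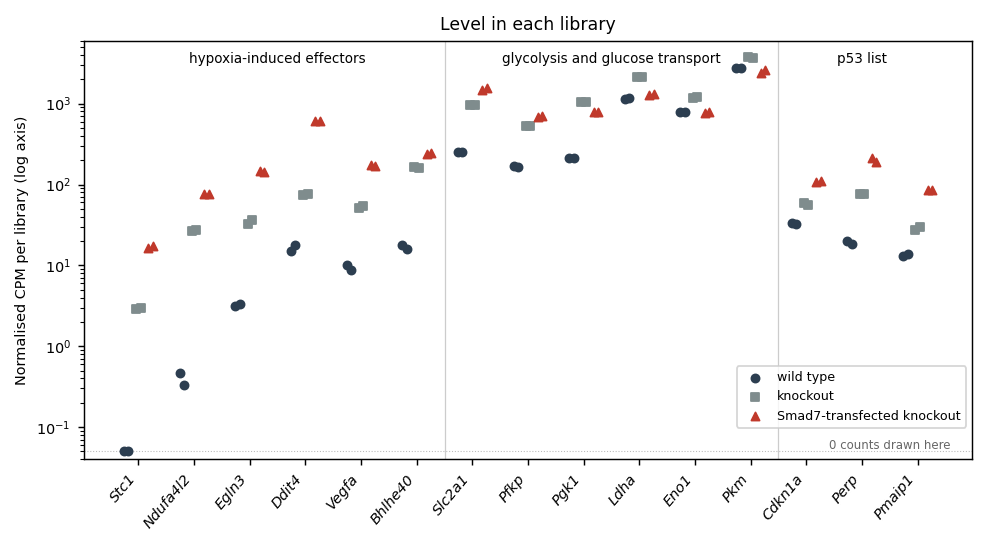
Normalised CPM on a log axis of 15 genes of 3 lists in each of the 6 libraries (2 points a group, circles wild type, squares knockout, triangles Smad7-transfected knockout). The hypoxia-induced genes are higher in the knockout than in wild type and highest after transfection, while Ldha, Eno1 and Pkm are higher in the knockout and lie near wild type in the transfected libraries.

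The plot of levels by library shows 2 patterns, one of genes that lie farther from wild type after transfection than in the knockout and one of genes that lie nearer to it. The glycolysis list holds both. Of 23 members tested, 9 were away and higher, 1 away and lower and 8 at the wild-type level, and the knockout counts were 9, 1 and 4. The 8 at the level became 5 with offsets for GC content and transcript length and 4 with library size scaling. Its median log2 fold was 0.74, against 0.80 in the knockout. Glycolytic genes are highly expressed, and among genes of the highest quintile of mean level 16.5% stood at the wild-type level, so the background for these 8 is higher than 8.55%.

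Glucose transporters remained high. Slc2a1, which encodes the transporter GLUT1, stood at 253 and 252 CPM in wild type, 968 and 973 in knockout cells, and 1466 and 1550 in the transfected libraries (log2 fold 2.58, SE 0.037, adjusted p = 4.5e-110). Slc2a3, which encodes GLUT3, had a log2 fold of 1.86 (SE 0.035) with 1.56 in the knockout. Pfkp, an isoform of the committed enzyme phosphofructokinase, stood at 169 and 164 CPM, 533 and 530, and 677 and 700 (log2 fold 2.05). Pgk1, which makes the first ATP of the pathway and lies on the X chromosome, stood at 211 and 211 CPM in wild type, 1044 and 1046 in knockout cells, and 780 and 788 in the transfected libraries (log2 fold 1.90). The transfected libraries thus lay above the knockout for Slc2a1 and Pfkp and below it for Pgk1, with no overlap with wild type in any.

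Members at the wild-type level and away from it are spread over early and late steps. Ldha, which turns pyruvate into lactate, stood at 1155 and 1171 CPM in wild type, 2133 and 2145 in knockout cells, and 1287 and 1332 in the transfected libraries (log2 fold 0.17, 95% interval 0.10 to 0.24). Eno1, an enolase, stood at 778 and 778, 1190 and 1195, and 756 and 787 CPM (−0.01, interval −0.08 to 0.06). Pkm, pyruvate kinase, stood at 2761 and 2788, 3748 and 3661, and 2415 and 2586 CPM (−0.15, interval −0.22 to −0.08), and left the limit with offsets for GC content and transcript length (−0.29). Knockout libraries were the highest for all 3 genes. Also at the wild-type level, and named after their values were seen, were Hk2 (0.12), Pfkm (−0.16), Pgam1 (−0.18), Ldhb (0.16) and Pdk1 (0.21). The enolases differed among themselves, since Eno2, the neuronal isoform, had a log2 fold of 3.31 (named after its value was seen). The 1 member away and lower was Eno3, the muscle enolase, at 33.3 and 34.2 CPM in wild type, 6.93 and 6.26 in knockout cells, and 5.81 and 5.19 in the transfected libraries. Glycolytic genes have many processed pseudogenes, and the sources used here do not say how reads shared between copies were counted, so these levels are uncertain to that extent.

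The genes of the factors themselves had a median log2 fold of 0.00. Beside 27.4%, 15.6% and 8.55% of all genes, 4 of 10 HIF subunits and oxygen sensors were away and higher, 0 away and lower, and 2 at the wild-type level. The 4 were Egln1, Egln3, Arnt2 and Hif3a, and whether so short a list differs from all genes was not tested. At the level were Vhl, the ubiquitin ligase subunit that captures hydroxylated HIF, and Arnt, the constant partner of the HIF-alpha subunits. Vhl stood at 32.5 and 30.8 CPM in wild type and 31.4 and 30.8 in the transfected libraries, and Arnt at 114 and 111 against 115 and 115. Hif1a and Epas1, the genes of the main alpha subunits, fell by 0.89 and 0.57 on the log2 scale, a smaller change than 2-fold, and are named here after their values were seen. HIF-alpha activity is set mostly at the protein, which these data do not measure.

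Genes of the p53 list formed a second group away from wild type. Of 30 members tested, 18 were at least 2-fold higher, 1 at least 2-fold lower and 2 at the wild-type level, with a median log2 fold of 1.52. The shares of all genes were 27.4%, 15.6% and 8.55%. In the knockout 9 were at least 2-fold higher and 8 at the wild-type level, with a median of 0.39. Perp, an effector of p53-dependent death, stood at 20.3 and 18.3 CPM in wild type, 76.3 and 77.4 in knockout cells, and 211 and 191 in the transfected libraries (log2 fold 3.38, SE 0.057, adjusted p = 4.2e-96). Cdkn1a, which encodes the cell-cycle inhibitor p21, stood at 33.6 and 32.9, 58.3 and 55.1, and 107 and 111 CPM (1.72, SE 0.055). Pmaip1, which encodes the death protein NOXA, stood at 13.03 and 13.75, 27.1 and 29.5, and 85.2 and 85.5 CPM (2.67, SE 0.070). For each of the 3 the groups were separate, with the transfected libraries highest.

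Btg2, an antiproliferative gene, had a log2 fold of 2.29, and Apaf1, the scaffold of the apoptosome, of 2.00. Eda2r, a death receptor of the tumour necrosis factor family on the X chromosome, had one of 2.13. The member away and lower was Trp53 itself, at 460 and 449 CPM in wild type, 323 and 340 in knockout cells, and 177 and 179 in the transfected libraries (log2 fold −1.35, SE 0.038). Mdm2, which encodes the ligase that removes p53, stood at 156 and 155 CPM in wild type, 159 and 148 in knockout cells, and 431 and 425 in the transfected libraries (1.46, SE 0.038). Knockout and wild type overlapped for Mdm2, and both transfected libraries lay above them. Trp53 and Mdm2 are named after their values were seen. Xpc and Ei24, a DNA damage sensor and a membrane protein of the endoplasmic reticulum, stood at the wild-type level (0.05 and 0.06). Of 16 genes of the Bcl2 family, the 4 away and higher were the BH3-only death genes Pmaip1, Hrk (2.40), Bbc3 (1.59) and Bmf (1.46), the 1 away and lower was Bok (−1.82, named after its value was seen), and Mcl1, a survival member, stood at the wild-type level (0.01). The share away and higher is near the 27.4% of all genes, 7 members passed the threshold upward and 7 downward, and the median was 0.05.

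Of 28 cyclins, kinases and inhibitors of the cell cycle, 8 were away and higher, 4 away and lower and 4 at the wild-type level, shares near those of all genes (27.4% and 15.6% for the first 2), and the median was −0.06. Rb1, the pocket protein that holds E2F factors, stood at 11.7 and 11.9 CPM in wild type, 21.7 and 21.4 in knockout cells, and 95.5 and 90.4 in the transfected libraries (log2 fold 2.97). Ccne1, which encodes cyclin E1, stood at 367 and 367, 286 and 295, and 105 and 103 CPM (−1.82), so that it lay below both other groups. Ccne2, its paralog, stood at 45.8 and 44.0, 13.3 and 12.1, and 49.9 and 45.0 CPM (0.08, interval −0.05 to 0.20), with the knockout alone low. Cdk2, the kinase both cyclins bind, was at the wild-type level (−0.12).

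Genes that make and fold proteins and feed the respiratory chain formed large groups below wild type. Beside them, 15.6% of all genes were at least 2-fold lower and 27.4% higher. In the fourth and highest quintiles of mean level, where the list medians lay, 546 of 3468 and 873 of 3469 genes were lower. Cytosolic ribosomal proteins came nearest to that background. Of 77 mitochondrial ribosomal proteins, 55 were at least 2-fold lower, 0 higher and 0 at the wild-type level, and all 77 passed the threshold downward. Of 37 proteasome subunits, 30 were at least 2-fold lower and 2 higher. Heat shock proteins and chaperonins counted 16 lower and 1 higher of 24, cytosolic ribosomal proteins 29 lower and 0 higher of 82, and nuclear genes of the respiratory chain 34 lower and 2 higher of 82. Median log2 folds were −1.23, −1.21, −1.34, −0.91 and −0.94 in that order, and in the knockout −0.41, −0.35, −0.40, −0.07 and −0.21. The 2 higher proteasome members, Psma8 and Psmb9, are the testis and interferon-inducible subunits, the 2 higher respiratory members, Cox4i2 and Cox6b2, are tissue-restricted isoforms, and the higher chaperone is Hspa1a (0.472 and 0.447 CPM in wild type, 1.68 and 2.06 in the transfected libraries). These 5 are named after their values were seen.

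Mrpl12, a subunit of the large mitochondrial ribosome, stood at 221 and 216 CPM in wild type, 95.6 and 103 in knockout cells, and 32.6 and 36.8 in the transfected libraries, which is 6.28-fold lower than wild type (log2 fold −2.65, SE 0.050, adjusted p = 1.1e-90). Psmc5, an ATPase of the 19S proteasome cap, stood at 369 and 386, 170 and 168, and 76.3 and 77.4 CPM (−2.30, SE 0.042). Psmb6, a catalytic subunit of the constitutive proteasome, had a log2 fold of −1.79. Groups were separate and in the same order for each of these. Of the chaperonin ring, Cct6a stood at 1189 and 1211 CPM, 851 and 862, and 321 and 319 (−1.91), and Cct5 had a log2 fold of −1.80. Hspd1, the mitochondrial chaperonin HSP60, had one of −1.83, and Hsph1, a co-chaperone of HSP70, one of −2.37. In the respiratory chain, Atp5g1, a subunit of the rotor of ATP synthase, stood at 185 and 199, 93.7 and 98.4, and 41.0 and 40.2 CPM (−2.24), and Cyc1, the cytochrome of complex III, had a log2 fold of −1.51. The 7 mitochondrially encoded transcripts tested had a median of 0.45, with mt-Nd5 (1.15) and mt-Nd6 (1.26) away and higher, genes that overlap on opposite strands and whose reads may be shared.

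Splicing factors lay low as well, beside 15.6% of all genes at least 2-fold lower and 27.4% higher. In the highest quintile of mean level, where the medians of the SR and hnRNP lists lay, 873 of 3469 genes were lower. For the host genes given last it was the fourth quintile, with 546 of 3468. Of 11 SR proteins, which recruit the spliceosome to exons, 7 were away and lower and 1 higher (Srsf12, named after its value was seen). Srsf3 stood at 559 and 526 CPM in wild type, 295 and 282 in knockout cells, and 159 and 157 in the transfected libraries (log2 fold −1.78). Of 20 hnRNP proteins, which coat nascent RNA, 10 were away and lower and 0 higher, and Hnrnpab had a log2 fold of −2.19. Host genes of small nucleolar RNAs counted 8 lower and 2 higher (Snhg11 and Snhg14) of 14. Snhg4 stood at 57.3 and 56.7, 11.4 and 11.9, and 6.91 and 7.57 CPM (−2.97).

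Members on the X chromosome stood apart within these groups. All 4 X-linked cytosolic ribosomal proteins were at the wild-type level, and 0 of 78 autosomal ones. X-linked genes as a whole did not stand there more often. Of 631 tested, 39 (6.18%) were at the level, against 8.78% of autosomal genes, and their median log2 fold was 1.07 (0.87 in the knockout). Rpl10 stood at 771 and 825 CPM in wild type, 1353 and 1430 in knockout cells, and 823 and 786 in the transfected libraries (log2 fold 0.01, interval −0.06 to 0.08). Rps4x (0.18), Rpl36a (0.09) and, named after its value was seen, Rpl39 (0.21) showed the same order of groups, while the autosomal Rpl8 stood at 2267 and 2326, 1978 and 2026, and 1055 and 1072 CPM (−1.11). Wild type and the transfected libraries overlapped for Rpl10 and were far apart for Rpl8. In the respiratory chain, 2 of 3 X-linked members, Ndufb11 (0.03) and Cox7b (−0.15), were at the wild-type level, and 0 of 76 autosomal ones. The third, Ndufa1 (0.73), and the 1 X-linked proteasome subunit, Psmd10 (0.66), both named after their values were seen, were above it by less than 2-fold. Of the hnRNP list the 1 member at the level was the X-linked Hnrnph2 (0.15). With offsets for GC content and transcript length the X-linked Rpl10, Rpl36a and Rps4x read 0.52, 0.54 and 0.64, and Cox7b and Ndufb11 0.38 and 0.43, all outside the limit, and Cox7b left it without the first wild-type library (−0.24). The medians of the whole lists became −0.65 for cytosolic ribosomal proteins, −0.74 for the respiratory chain, −1.12 for mitochondrial ribosomal proteins and −1.11 for the proteasome.

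**Figure D2:**
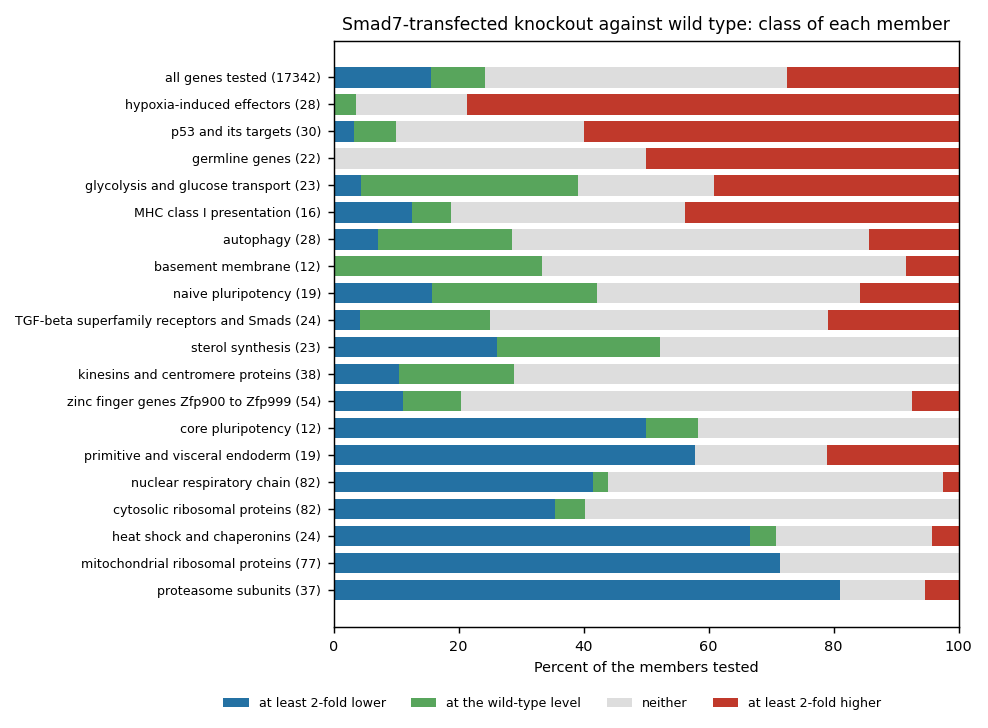
Share of the members tested (percent) that were at least 2-fold lower, at the wild-type level, neither, or at least 2-fold higher than wild type, for all genes and a selection of the lists, with the number tested in brackets. Hypoxia-induced effectors hold 22 of 28 higher, and proteasome subunits 30 of 37 lower, beside 27.4% and 15.6% of all genes.

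The chart of classes sets these groups beside those of cell identity, where markers moved in both directions. Of 12 core pluripotency genes, 6 were away and lower, 0 higher and 1 at the wild-type level, beside 15.6%, 27.4% and 8.55% of all genes. Their median log2 fold was −1.05 (−0.45 in the knockout). Pou5f1, which encodes OCT4, stood at 949 and 952 CPM in wild type, 1052 and 1085 in knockout cells, and 569 and 586 in the transfected libraries (−0.72, SE 0.035, adjusted p = 4.8e-44). Nanog stood at 494 and 495, 674 and 692, and 363 and 355 CPM (−0.46, SE 0.036). Both genes were lowest in the transfected libraries and highest in the knockout, with less than a 2-fold change from wild type. Sox2 was at the wild-type level with 358 and 340 CPM in wild type and 414 and 405 in the transfected libraries (0.23, interval 0.16 to 0.30), a call that ended without the second transfected library (0.26) or the first wild-type library (0.25). The call for Nanog was lost with library size scaling (adjusted p = 0.057).

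Larger falls were seen among their partners. Trim28, a corepressor of retroviral elements, stood at 3254 and 3219 CPM in wild type, 2333 and 2342 in knockout cells, and 864 and 876 in the transfected libraries (log2 fold −1.90). Utf1, a chromatin factor of undifferentiated cells, stood at 300 and 310, 164 and 162, and 65.5 and 68.4 CPM (−2.19). Lin28a, an RNA-binding protein that blocks let-7 maturation, had a log2 fold of −2.10, and L1td1 one of −1.45. The remaining 2 away and lower were Dppa4 and Zfp281. Every one of these lay lower in the transfected libraries than in wild type without overlap.

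The naive pluripotency list had a median nearer to wild type, with members moved in both directions. Of 19 naive pluripotency genes, 3 were away and higher, 3 lower and 5 at the wild-type level, with a median of −0.10 and, in the knockout, of 0.52, when 6 were higher and 1 lower. Of the 19, 8 passed the threshold upward and 10 downward. At the wild-type level stood 8.55% of all genes and 16.5% of the highest quintile of mean level, where the median of this list lay. With library size scaling the list's median turned positive (0.29) and 3 members were at the level. Esrrb, a nuclear receptor that activates the naive network, stood at 699 and 712 CPM in wild type, 1018 and 1006 in knockout cells, and 652 and 666 in the transfected libraries (−0.10, interval −0.17 to −0.03). Tfcp2l1, a target of LIF signalling, was at the level too (0.19), as were Fgf4 (−0.11), Zfp42 (−0.24) and Nr0b1 (0.04, named after its value was seen). The call for Zfp42 ended with RLE factors, DESeq2 (−0.29), a fit of the 4 libraries alone, and without 4 of the 6 libraries in turn (−0.25 to −0.27), and Esrrb read −0.27, outside the limit, with offsets for GC content and length. Klf4 stood at 113 and 108, 338 and 334, and 221 and 226 CPM (1.01), which left it 2-fold above wild type and below the knockout. Klf5 (1.12) and Tcl1 were also higher, while Gbx2 (−1.99), Fbxo15 (−1.05) and Dppa3 (−3.25) were lower.

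Genes that mark the exit from the naive state included the de novo DNA methyltransferases. Dnmt3a stood at 345 and 322 CPM in wild type, 63.2 and 65.1 in knockout cells, and 43.2 and 45.8 in the transfected libraries (log2 fold −2.90). Dnmt3b stood at 143 and 142, 86.5 and 93.9, and 28.5 and 28.3 CPM (−2.32). Dnmt3l, their catalytically inactive partner, had a log2 fold of −1.23. By contrast, the maintenance enzyme gene Dnmt1 (−0.21) and its guide Uhrf1 (0.07) were at the wild-type level, although the call for Dnmt1 ended with RLE factors and DESeq2 (both −0.26), without the second wild-type library (−0.25) and with offsets for GC content and length (−0.51). Of the 17 formative and primed genes, 6 were away and lower and 3 higher (Otx2, Fgf5 and Cdh2), beside 15.6% and 27.4% of all genes.

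Germline genes, many of which DNA methylation silences in somatic cells, counted 11 away and higher of 22, beside 27.4% of all genes. Their median was 0.99 (0.22 in the knockout). None was at least 2-fold lower, but 5 passed the threshold downward by less, and 15 passed it upward. None was at the wild-type level, but the list's median level was 8.26 CPM, in the third quintile, where 8.65% of genes were. Tex15 stood at 15.5 and 17.1 CPM in wild type, 3.47 and 2.47 in knockout cells, and 38.8 and 36.7 in the transfected libraries, so it was below wild type in one comparison (−2.45) and above it in the other (1.21). Sycp3, of the synaptonemal complex, stood at 7.31 and 6.43, 8.97 and 7.57, and 25.2 and 24.6 CPM (1.86). Tex13b, X-linked, had 5.04 against 4.69 in the knockout. MHC class I presentation counted 7 higher, 2 lower and 1 at the wild-type level of 16. Nlrc5, which activates class I genes, stood at 0.944 and 0.503 CPM in wild type, 0.765 and 1.26 in knockout cells, and 17.2 and 15.4 in the transfected libraries (4.49, SE 0.20). Tap1, a subunit of the peptide transporter, had 3.66 and B2m, the light chain, 1.98, while Psmb10, an immunoproteasome subunit, had −2.88. Knockout and wild type overlapped for Nlrc5 and the transfected libraries alone were high.

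Markers of primitive and visceral endoderm, cells that arise in small numbers in serum cultures, stayed low. Of 19 tested, 11 were away and lower and 4 higher, with 0 at the wild-type level, and a median of −1.93 (−1.76 in the knockout, 13 lower and 2 higher). Cubn, an endocytic receptor, stood at 34.6 and 29.2 CPM in wild type, 0.510 and 0.578 in knockout cells, and 0.774 and 1.30 in the transfected libraries (log2 fold −4.90). Dab2, its adaptor, stood at 30.7 and 29.3, 0.867 and 0.684, and 1.36 and 1.73 CPM (−4.26). Lrp2, its partner receptor, stood at 154 and 156, 37.4 and 37.4, and 16.7 and 18.7 CPM (−3.12). Wild type alone was high for Cubn and Dab2, and Lrp2 was lower still after transfection than in the knockout. The defining factor Gata6, chosen after its value was seen, stood at 9.85 and 11.2 CPM in wild type, 0.255 and 0.210 in knockout cells, and 1.87 and 1.57 in the transfected libraries (−2.62). The 4 higher members were Hnf4a (4.68, with 4.31 in the knockout), Apoe (1.91), Apob and Cited1.

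Genes of the basement membrane, which endoderm secretes, differed from those markers. Of 12 tested, 1 was away and higher, 0 lower and 4 at the wild-type level, with a median of −0.11 (−0.29 in the knockout). Lamb1, a laminin chain, stood at 121 and 115 CPM in wild type, 63.7 and 56.9 in knockout cells, and 104 and 101 in the transfected libraries (−0.20, interval −0.29 to −0.11). Lamc1 (−0.13), Sparc (−0.09) and Serpinh1 (0.06) were the others at the level, and Hspg2, which encodes perlecan, was the 1 away (1.08). Lamb1 left the limit with DESeq2 and RLE factors (both −0.24) and without the second wild-type library (−0.25), and Lamb1 and Lamc1 with offsets for GC content and transcript length (−0.47 and −0.48), with which the list's median was −0.31. Of 11 trophectoderm and keratin genes tested, 7 were higher and 2 lower, beside 27.4% and 15.6% of all genes. The defining factors Cdx2, Elf5 and Gata3 had at most 8 counts in any library, Krt8 (−1.82) and Krt18 (−2.43) fell, and Krt19 (3.16) and Tfap2c (1.81) rose.

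Within the TGF-beta superfamily, the pathway that Smad7 acts on, the share of members away and higher, 6 of 19 ligands and antagonists and 5 of 24 receptors and Smads, was near that of all genes (27.4%). Of the 19 ligands and antagonists, 6 were away and higher, 1 lower and 1 at the wild-type level. Nodal stood at 53.7 and 58.2 CPM in wild type, 78.2 and 78.1 in knockout cells, and 124 and 125 in the transfected libraries (log2 fold 1.15, SE 0.049). Lefty2, an antagonist that nodal signalling induces, stood at 105 and 109, 204 and 200, and 230 and 223 CPM (1.08). Its neighbour Lefty1 had a log2 fold of −0.23 that turned to 0.16 with library size scaling. Bmp4 stood at 54.3 and 55.3, 53.4 and 55.4, and 34.6 and 37.3 CPM (−0.60, SE 0.061), and Bmp7 at 1.12 and 1.51, 4.84 and 5.47, and 17.68 and 19.04 (3.79). The transfected libraries alone were low for Bmp4, and for Nodal, Lefty2 and Bmp7 all 3 groups were separate and transfected was highest. Gdf3, the ligand away and lower, had −1.22, and Inhbb, the ligand at the level, −0.18, a call that ended with RLE factors, DESeq2 (both −0.23) and without the first wild-type library (−0.22).

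Of 24 receptors and Smads, 5 were away and higher, 1 lower and 5 at the wild-type level, with a median of 0.01 (−0.17 in the knockout), and 8 passed the threshold upward and 10 downward. Acvr1b, the type I receptor for activin and nodal, stood at 38.5 and 37.3 CPM in wild type, 79.6 and 78.9 in knockout cells, and 98.8 and 101 in the transfected libraries (1.40). Smad3, a transducer of TGF-beta and activin, stood at 10.7 and 10.3, 33.1 and 33.1, and 26.3 and 27.8 CPM (1.37), and the receptor Tgfbr2 and coreceptor Tgfbr3 had log2 folds of 3.24 and 3.12. Smad9, named after its value was seen, completed the 5 (1.68). At the wild-type level with Smad7 stood Smurf1 (0.03) and Smurf2 (−0.13), the ubiquitin ligases that SMAD7 recruits, and Smad1 and Acvr2b. With offsets for GC content and length Smurf1 and Smurf2 read −0.26 and −0.28, outside the limit, and Smad7 −0.22, within it. Smurf2 also left it with DESeq2 (−0.18). Bambi, a decoy receptor and BMP target, stood at 16.3 and 18.0 CPM, 8.26 and 9.57, and 5.03 and 5.46 (−1.70).

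Of 13 targets of BMP signalling, 7 passed the threshold downward and 2 upward, and 4 did not pass it. Over all genes, 38.8% passed it downward and 43.1% upward, and 15.6% were at least 2-fold lower. Whether this short list differs from all genes was not tested. Id1, an inhibitor of differentiation factors and a direct target of the BMP Smads, stood at 286 and 283 CPM in wild type, 145 and 148 in knockout cells, and 151 and 151 in the transfected libraries (log2 fold −0.91, SE 0.038, adjusted p = 4.0e-51). Id2 (−0.61) and Id3 (−0.54) were lower than wild type by less than 2-fold, and their knockout values were −0.68 and −0.45. The knockout and transfected libraries thus lay close together for Id1, both well below wild type. Of these targets, 1 was away and higher (Dusp9), 3 lower (Bambi, Msx1 and Ube2s) and 2 at the wild-type level (Smad7 and Hes1), with a median of −0.54. Msx1 rested on 2 to 19 counts a library, and its call was lost without the first transfected library (adjusted p = 0.067) or the second wild-type library (0.092). Id3 lost its call with library size scaling (0.076). The acetyltransferase genes Ep300 and Crebbp had log2 folds of −0.53 and −0.04, the second at the wild-type level, which it left with DESeq2 (−0.09) and with the offsets (−0.51).

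**Figure D3:**
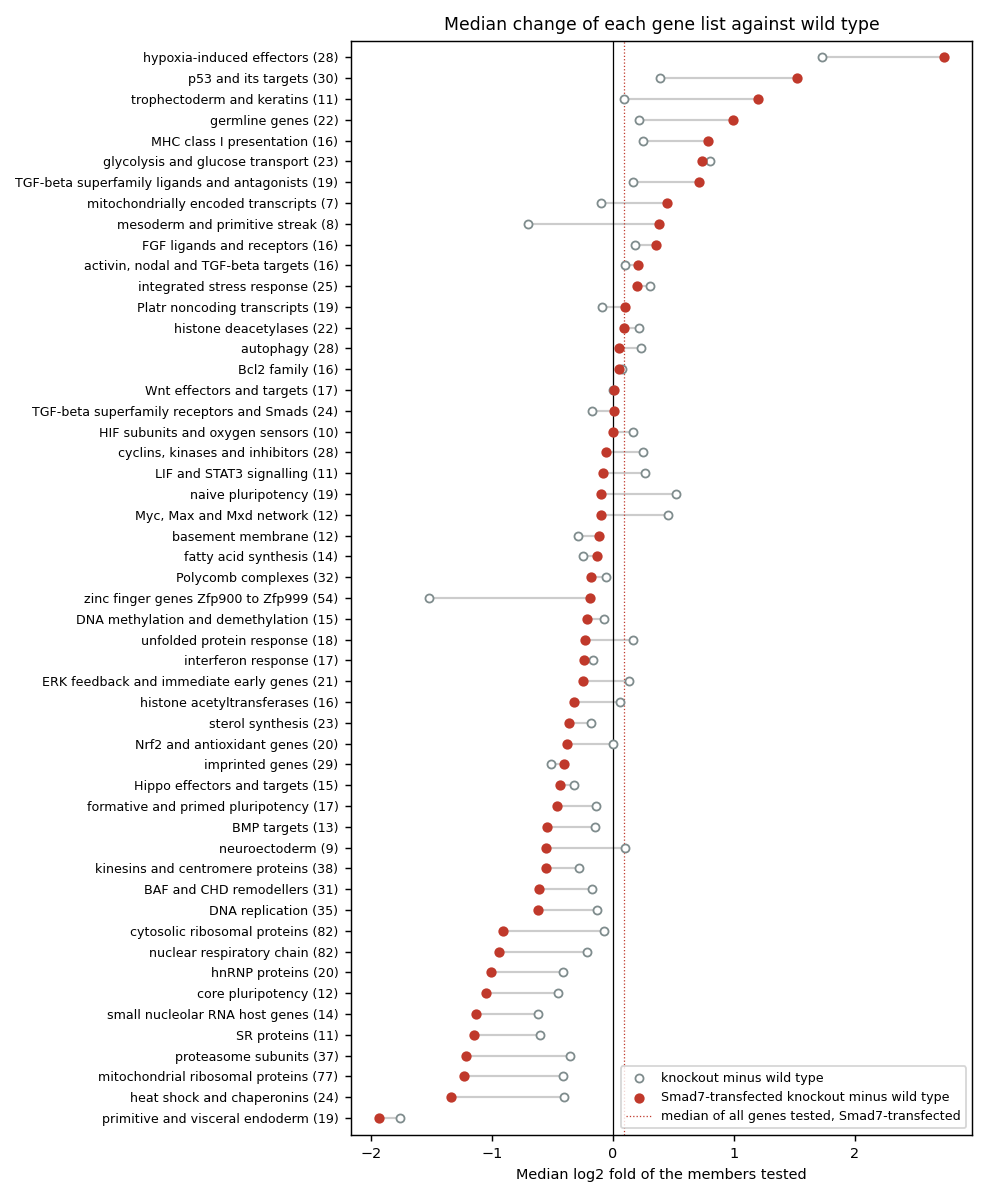
Median log2 fold against wild type of the tested members of each list drawn (number in brackets), open circles for the knockout and filled circles for the Smad7-transfected knockout, which share the wild-type libraries, with the dotted line at the median of all genes. Lists with the fewest members tested, such as the Y-linked genes (3), are not drawn. Of the lists drawn, hypoxia-induced effectors (2.74) lie highest and endoderm markers (−1.93) lowest.

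The plot of list medians covers the other groups. The integrated stress response list counted 6 away and higher, 2 lower and 4 at the wild-type level of 25. Over all genes the shares were 27.4%, 15.6% and 8.55%, and the list's median log2 fold was 0.20. Its members differed among themselves. Chac1, which degrades glutathione, stood at 1.36 and 1.62 CPM in wild type and 36.3 and 40.7 in the transfected libraries (4.69), while the amino acid synthesis genes Asns (−1.08) and Psat1 (−1.09) were lower, and the transporter genes Slc7a5 (0.06) and Slc7a1 (−0.05) were at the level. Of 18 genes of the unfolded protein response, 2 were away and higher, 3 lower and 3 at the level. Their median was −0.23, which became 0.17 with library size scaling. Hspa5, the main chaperone of the endoplasmic reticulum, stood at 822 and 830 CPM in wild type, 731 and 727 in knockout cells, and 327 and 313 in the transfected libraries (−1.37). Calr, calreticulin, was at the level with 933 and 933 against 894 and 938, while Herpud1 rose (2.01). Of 17 Wnt effectors and targets, 1 was away and higher, 3 lower and 4 at the level, with a median of 0.01. Ctnnb1 (0.01) and Apc (0.06) were at the level, while Axin2, a target that reports on the pathway, fell (−1.58). The higher member was Rnf43 (3.04), read 2 and 7 times in the wild-type libraries and 39 and 35 times in the transfected ones. Dkk1, a secreted Wnt inhibitor, was read 80 and 71 times in the wild-type libraries, 0 and 1 times in those of the knockout and 0 times in both transfected libraries, at least 49.2-fold lower when 3 counts in the group serve as its limit.

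Lipid and housekeeping lists were mixed. Over all genes, 27.4% were away and higher, 15.6% away and lower and 8.55% at the wild-type level. Of 23 sterol synthesis genes, 6 were away and lower, 0 higher and 6 at the wild-type level, with a median of −0.36 that became 0.03 with library size scaling. Cyp51, a demethylase of lanosterol, was at the level (−0.06), while Idi1, an isomerase of the isoprenoid steps, had a log2 fold of −1.63. Of 14 fatty acid synthesis genes, Fasn (−1.36) and Acaca (−1.48), the enzymes of the main chain of steps, were away and lower, and Scd2, a desaturase, was at the level (−0.04). Of 28 autophagy genes, 6 were at the level, among them the core genes Atg13 (0.03), Atg4b (0.00) and Pik3c3 (−0.15), and 4 were away and higher, among them the cargo receptor gene Sqstm1 (1.74) and Wipi1 (2.58). The 2 away and lower, Atg16l1 (−1.14) and Gabarapl2 (−1.28), are core genes as well, and Pik3c3 lost its level call with DESeq2 (−0.19) and without the second wild-type library (−0.22). The median level of the 35 DNA replication genes lay in the highest quintile, where 873 of 3469 genes were away and lower. Of these 35 replication genes, 10 were lower and 0 higher, with Pole (0.04), Orc6 (0.19) and Rrm2 (0.23) among 5 at the level. Orc6 and Rrm2 left it without the second transfected library (both 0.25) and with the offsets for GC content and length (0.48 and 0.29), and Pole with the offsets (−0.27), as did Apc (−0.37) and Slc7a1 (−0.37) above.

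Among the genes that the knockout changed most, 10 were picked for standing at the wild-type level after transfection and 10 for staying away. The equal numbers follow from that choice and do not say how many differences were gone. Of genes changed at least 4-fold in the knockout with a mean of at least 5 CPM, the 10 with the greatest change that stood at the wild-type level after transfection were Brca2, Atrx, Vps13a, Cenpe, Rock1, Tmed5, Zdbf2, Fam126b, Erbin and Egr1. Brca2, which repairs DNA by recombination, stood at 205 and 194 CPM in wild type, 36.2 and 34.4 in knockout cells, and 174 and 176 in the transfected libraries (log2 fold −0.19 against −2.50 in the knockout). Atrx, an X-linked chromatin remodeller, stood at 629 and 617, 125 and 121, and 577 and 558 CPM (−0.13 against −2.34). Cenpe, a kinesin of the centromere, stood at 249 and 246, 53.2 and 52.6, and 226 and 212 CPM (−0.18 against −2.23). Egr1, an immediate early gene, was the 1 that the knockout raised, at 16.6 and 16.3, 69.0 and 66.9, and 17.0 and 18.1 CPM (0.10 against 2.05). The knockout libraries were far from both other groups for each of these 4, yet the transfected and wild-type libraries did not overlap either. Brca2, Atrx and Cenpe passed the threshold with small differences (adjusted p = 7.8e-06, 2.9e-04 and 7.2e-06), and Egr1 did not (0.29).

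Most of these 10 genes have long transcripts of low GC content, but Egr1 (4484 bases, GC content 57.3%) and Tmed5 (3800 bases) do not have long ones, and the GC content of Egr1 is high. Over the 10 the median transcript length was 8298 bases and the median GC content 40.2%, against 3015 bases and 49.7% over the 16969 genes with values, the highest quintile of which starts at 4934 bases. With offsets for GC content and length, the log2 folds of Brca2, Atrx, Cenpe, Rock1 and Zdbf2 became −0.52, −0.52, −0.40, −0.44 and −0.64, those of Vps13a, Tmed5, Fam126b and Erbin −0.49, −0.35, −0.33 and −0.30, and Egr1 alone of the 10 kept its place (−0.13), which it lost without the first transfected library (0.15). With DESeq2, Brca2 (−0.24), Cenpe (−0.23), Rock1 (−0.28) and Zdbf2 (−0.27) left the limit, as Rock1 and Zdbf2 did with RLE factors. Without the second wild-type library Brca2 (−0.25), Vps13a (−0.22), Rock1 (−0.30) and Zdbf2 (−0.32) left it, without the first Fam126b (0.20), and without a transfected library Rock1, Zdbf2 and Fam126b. Mki67, the proliferation marker, and Cenpf, both chosen after their values were seen, stood at −0.30 and −0.90 after −2.21 and −2.76 in the knockout. Of all 38 kinesins and centromere proteins, 7 were at the wild-type level, 4 away and lower (Kif20a, Aurka, Plk1 and Cenpx) and 0 higher, and in the knockout 13 were at the level and 6 lower. The shares of all genes were 8.55%, 15.6% and 27.4%, and in the knockout 15.3% and 8.74%.

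The zinc finger genes Zfp900 to Zfp999, encoding KRAB-type repressors among others, were mostly low in the knockout. Of 54 tested, 39 were at least 2-fold lower there, 1 higher and 1 at the wild-type level, with a median of −1.52. In the transfected libraries 6 were lower, 4 higher and 5 at the level, beside 15.6%, 27.4% and 8.55% of all genes. The share at the level was thus near that of all genes. Of the 54, 16 passed the threshold upward and 25 downward. Their median was −0.19, which became 0.20 with library size scaling. The 5 at the level became 1 with RLE factors and 3 with offsets for GC content and length. Their summed level was 1884 and 1749 CPM in wild type, 650 and 607 in knockout cells, and 1307 and 1245 in the transfected libraries. Zfp942 stood at 19.4 and 17.2, 5.76 and 5.10, and 20.8 and 18.9 CPM (0.12, a level call lost with DESeq2, 0.07, and without the second transfected library, 0.20, or the first wild-type library, 0.18), while Zfp951 stood at 5.31 and 5.87, 0.459 and 0.210, and 0.323 and 0.433 (−3.85). These genes share sequence with each other, so reads between them are uncertain.

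**Figure D4:**
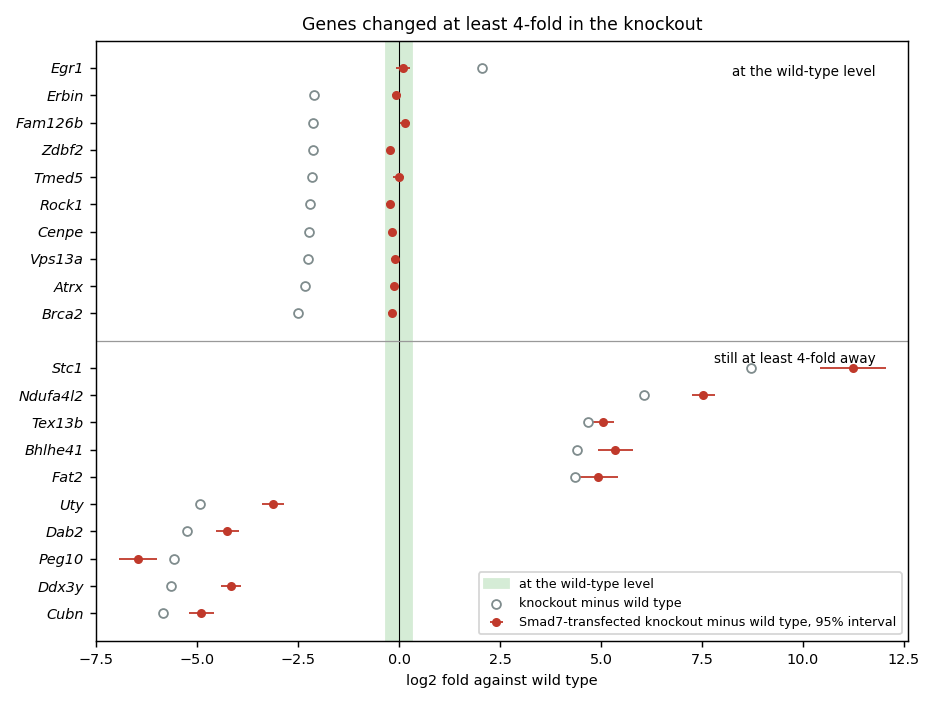
Log2 fold against wild type of 20 genes changed at least 4-fold in the knockout, open circles for the knockout and filled circles with 95% intervals for the Smad7-transfected knockout, with the band of the wild-type level (0.32 either way). The upper 10 were chosen for lying in the band and the lower 10 for lying at least 4-fold away, so their separation follows from the choice. Stc1 had no count in wild type, so its plotted value depends on the fit's prior and is no measured fold.

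Still at least 4-fold away in the direction of the knockout were Stc1, Ndufa4l2, Tex13b, Bhlhe41 and Fat2 above wild type and Cubn, Dab2, Peg10, Ddx3y and Uty below it, as the plot of knockout changes shows. Peg10, an imprinted gene expressed from the paternal allele, stood at 20.1 and 17.6 CPM in wild type, 0.459 and 0.316 in knockout cells, and 0.194 and 0.216 in the transfected libraries (log2 fold −6.47, SE 0.24). Among 29 imprinted genes, 6 were away and higher, 9 lower and 5 at the wild-type level, beside 27.4%, 15.6% and 8.55% of all genes. Igf2r, a maternally expressed receptor, stood at 91.1 and 90.3, 172 and 165, and 410 and 426 CPM (2.21), and the maternally expressed noncoding RNA Meg3 was at the level (−0.16), with −0.72 under the offsets for GC content and length. Fat2, an atypical cadherin, had 4.92 against 4.35 in the knockout.

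Other genes with the greatest changes were of many kinds. Beside Stc1, Ndufa4l2, Egln3 and Bhlhe41, the greatest rises were Vldlr, a lipoprotein receptor (6.36), Mst1, a macrophage-stimulating growth factor (6.33), Chrna4, a nicotinic receptor subunit (6.26), Matn1, a matrix protein of cartilage (6.09), Cacna1e, a calcium channel (5.68), Ahnak2 (5.48), Pla2g4a, which releases arachidonic acid (5.41), and Aqp3, a water and glycerol channel (5.32). Aqp3 stood at 7.727 and 7.604 CPM in wild type, 83.2 and 85.9 in knockout cells, and 295 and 319 in the transfected libraries. Among the greatest falls beside the endoderm and Y-linked genes and Peg10 were Khdc3, a gene of the oocyte's maternal complex (−3.54), Sgk1, a kinase (−3.08), Myc (−3.01) and the noncoding RNA gene Eprn (−3.01). Myc stood at 117 and 117 CPM in wild type, 22.53 and 22.03 in knockout cells, and 14.7 and 14.4 in the transfected libraries. Sgk1 stood at 420 and 417, 203 and 201, and 49.9 and 49.1 CPM. The transfected libraries were the farthest from wild type for all 3 genes with values given.

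The sex chromosomes differed between knockout and wild-type cells, and the difference remained. E14 is a male line. Counts of Ddx3y were 710 and 748 for wild type, 23 and 9 for the knockout, and 40 and 39 after transfection (log2 fold −4.17). Uty had 352 and 396, 14 and 13, and 41 and 42 counts (−3.13), and Eif2s3y 961 and 1084, 57 and 56, and 77 and 104 (−3.46). Kdm5d had at most 2 counts in any library. Of the 6 Y-linked genes tested in the whole table, 4 were away and lower, and Uba1y (0.06) and Gm47283 (0.37) were not. On the X chromosome, 327 of 631 genes were at least 2-fold higher, 36 lower and 39 at the wild-type level, with a median log2 fold of 1.07 (0.87 in the knockout), against a median of 0.04 over 16324 autosomal genes (0.00 in the knockout). Xist, the RNA that coats a silenced X chromosome, stood at 25.4 and 21.9 CPM in wild type, 14.8 and 13.2 in knockout cells, and 118 and 113 in the transfected libraries (2.29). It was the lowest in the knockout and the highest after transfection, but its antisense gene overlaps it and whether counting used strand is not stated. For every gene above, the loss of lncSmad7, transfection with Smad7 and these differences between the cells cannot be told apart.

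**Figure D5:**
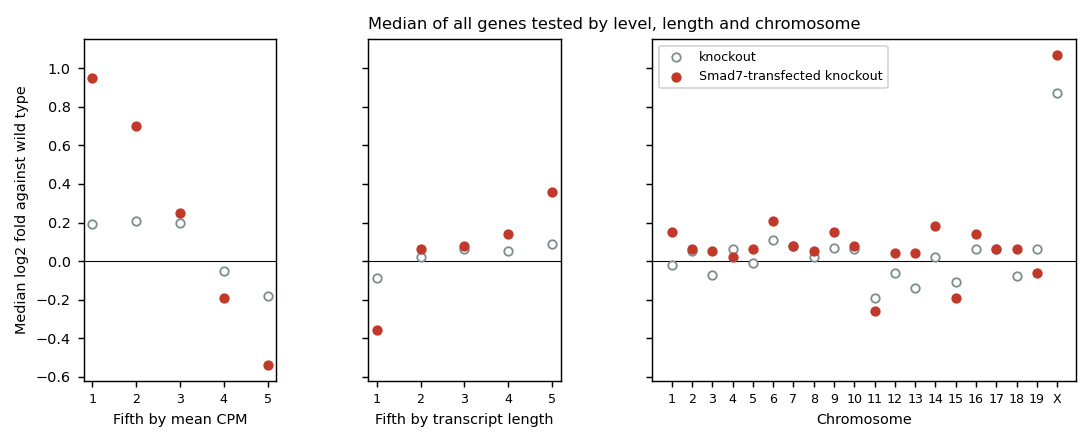
Median log2 fold against wild type of all genes tested by quintile of mean CPM, by quintile of transcript length (1 lowest) and by chromosome, open circles for the knockout and filled circles for the Smad7-transfected knockout. The transfected libraries run from 0.95 in the lowest to −0.54 in the highest quintile of level, and the X chromosome lies at 1.07.

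The plot of gene properties shows medians that differed with a gene's level. The filter keeps a gene with enough reads in 1 group alone, and the transfected libraries held the most genes with a count. Genes can thus enter the low quintiles through those libraries, which raises their medians. The median over all genes was 0.04 when 1 CPM in 4 libraries was required and 0.17 with no filter. How much of the trend follows from the filter was not tested. From the lowest to the highest quintile by mean CPM, medians were 0.95, 0.70, 0.25, −0.19 and −0.54, and in the knockout 0.19, 0.21, 0.20, −0.05 and −0.18. By transcript length they ran from −0.36 in the shortest quintile to 0.36 in the longest. Long intergenic noncoding RNAs had a median of 1.01 over 484 genes, processed pseudogenes −0.96 over 870 and small nucleolar RNAs −1.44 over 153, against 0.07 over 13898 protein-coding genes. Ribosomal, proteasome and respiratory genes are mostly short and highly expressed, the properties with which lower values went, and their part in those groups was not tested beyond the offsets given above. In the 2 lowest quintiles, 0 and 6 genes could be called at the wild-type level, and 8.65%, 17.4% and 16.5% in the others, so genes of low level could be found away from wild type but hardly at its level.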

How the data were processed

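The raw gene counts are the authors' deposited table. Per the submitters' processing notes, STAR and featureCounts 1.6.3 were used with mm10 (GRCm38). Neither strand use nor how multi-mapping reads were treated is given in the sources used here. Another 2 columns could be matched to no labelled sample and stayed out, so the knockout transfected with lncSmad7 is not analysed here. Depth was 13392941 to 20209760 counts a library. Gene positions and types are from the GENCODE annotation of GRCm38.

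The 6 libraries of 3 groups, 2 replicates each, were fitted together with edgeR 4.0.16 in R 4.3.3 (filterByExpr, TMM factors, robust quasi-likelihood fit with 3 residual degrees of freedom, Benjamini-Hochberg adjustment over all 17342 genes tested). Values are CPM over TMM-scaled library sizes. SE is the log2 fold over the root of the test's F. Counts between replicates differed by more than sampling noise (chi-square per degree of freedom 1.57 to 1.89), so none was treated as a copy of another. The fit was also run on simulated data with known changes. Few genes changed in them, unlike here, so that run does not check the scaling on which the level calls rest.

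Genes named are the 12 greatest rises and falls with a mean of at least 5 CPM, up to 4 members of a list away from wild type with the smallest p and up to 3 at its level with the highest CPM, 10 and 10 of the genes changed at least 4-fold in the knockout, and genes of the pathway. The members and lists were chosen with earlier results of these data known. Alternatives were RLE factors, library size scaling, DESeq2 1.42.0, other filters, the 4 libraries alone, a replicate block, glmTreat, GC and length offsets, each library left out, and other limits for the wild-type level. Some genes that the rule picks are not reported here.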

Additional observations from a re-analysis of the deposited data

How the results depend on the processing

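The 14198 calls and the 7457 changes of at least 2-fold held within 1.5 times under every alternative run except that 4822 of 13582 genes were at least 2-fold changed when 1 CPM in 4 libraries was required, where fewer genes were tested. The 1483 genes at the wild-type level became 941 with DESeq2, 177 with a limit of 1.1-fold and 3694 with one of 1.5-fold, the last 2 by construction, and for DESeq2 the cause was not tested. Leaving out 1 library in turn gave 13353 to 14569 calls, 7205 to 7864 changes of at least 2-fold, 1181 to 1476 genes at the level, and 3779 to 4069 changes of at least 2-fold in the knockout. A replicate block gave 14219 calls, 7441 of at least 2-fold, 1538 genes at the level and 3938 in the knockout. Replicate numbers did not pair the samples, since the correlations of their deviations were 0.0057, 0.0053 and 0.026.

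Of the 219 named genes not at the level, 215 held with library size scaling, where Lefty1 (0.160) and lncSmad7 (0.135) turned sign, and 207 with the filter of 1 CPM, where 1 was lost and the others were not tested. In the knockout, signs turned with offsets for GC content and length for Atg13 (−0.077), Brd3 (−0.097), Ctnnb1 (−0.047), Dnmt1 (−0.026), Etv5 (−0.091), Mrpl15 (0.280), Phc1 (−0.136), Pole (−0.079), Prdx1 (0.078), Rcor1 (−0.022) and Slc7a5 (−0.103), and with library size scaling for Atp5b (0.009), Hdac1 (0.004), Manf (0.009) and Rpl41 (0.018); the cause was not tested. Over the alternatives the list medians ran from 2.67 to 3.14 for hypoxia, 1.39 to 1.91 for p53, −1.28 to −0.82 for the proteasome and −0.95 to −0.51 for cytosolic ribosomal proteins. The medians of 22 of 55 lists changed sign under at least 1 of them, a count that includes autophagy, whose median only fell to 0.0. Depth limits the level calls, which genes of low count cannot reach.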
